A study of Mus musculus with 18 samples.

Results

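The autophagy and lysosome genes described here are 33 of the 46603 genes in the count table, taken by gene name from a list of autophagy machinery and lysosomal proteins and compared across all 6 groups of the study. Each of the 33 names matched 1 row, and all of them passed the filter on low counts that left 13203 genes for testing. In autophagy, a membrane grows around cytoplasmic cargo, closes into an autophagosome and fuses with a lysosome, where hydrolases degrade what was enclosed. Proteins of the LC3 and GABARAP family are joined to lipid on that membrane and bind receptors that carry cargo, while TFEB and its relative TFE3 switch on many autophagy and lysosomal genes. In pancreatic acinar cells, lysosomal cathepsins also meet digestive zymogens: cathepsin B activates trypsinogen and cathepsin L degrades it, and impaired autophagy is a known feature of pancreatitis.

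The libraries come from pancreatic acinar cells of xCT KO mice (xCT-/-) and WT mice (xCT+/+). Cells were taken fresh (day 0) or after 1 or 4 days in suspension in Advanced RPMI medium. xCT, encoded by Slc7a11, imports cystine, and the knockout is not restricted to acinar cells. The groups were KO day 0, KO day 1, KO day 4, WT day 0, WT day 1 and WT day 4, with 3 libraries each and 18 in all. The culture lets acinar cells lose their differentiated state. The series calls the 3 libraries of a group biological replicates without tying a library to an animal, so p-values measure the spread between these libraries, which may be technical in part. The questions put to these genes were how they changed with culture time and whether KO and WT differed at each day or in their change between days.

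Libraries held 13184473 to 19533947 counts in KO and 12127474 to 20135435 in WT. Slc7a11 had 1 to 33 counts in KO libraries, against 48 to 2286 in WT libraries. WT replicate 1 was the only replicate with counts of the Y-linked gene Ddx3y and had at most 1 count of Xist at each day, so genotype and sex are in part confounded; Lamp2, Gla and Tfe3 are X-linked. WT day 4 replicate 3 stood apart from its group, with a chi-square per degree of freedom of 31.1 and 25.3 against the other 2 libraries, where the pairs of all groups otherwise gave 5.39 to 14.5. All 11 acinar markers were detected, and they took 52.8% to 54.3% of counts in KO and 52.6% to 53.5% in WT at day 0, 44.1% to 45.3% and 46.4% to 47.7% at day 1, and 4.64% to 5.62% and 5.98% to 8.23% at day 4. Because enzyme transcripts left so much of the library between day 0 and day 4, the scale matters for every change over time. CPM here are counts scaled to a common library size after TMM correction, which sets the typical gene near no change. Scaled by library totals instead, the median log2 fold change of all genes tested was higher by 1.24 (KO) and 0.99 (WT) at day 1 over day 0, and by 1.83 (KO) and 1.98 (WT) at day 4 over day 1. In that setting most of the 13203 genes passed as higher. They were 9173 (KO) and 8168 (WT) at day 1 over day 0, and 12031 and 12203 at day 4 over day 1. Counts with library totals below stand against these. "Rose" and "fell" below mean an adjusted p under 0.05 from edgeR's quasi-likelihood test, relative to the typical gene. In such bulk samples, fewer cells of a type and less RNA per cell cannot be told apart.

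Together the 33 genes took 0.0871% to 0.102% of counts in KO and 0.0854% to 0.0910% in WT at day 0, and 0.871% to 0.906% in KO and 0.927% to 0.975% in WT at day 4. Per kilobase of transcript, Ctsl had the highest mean CPM of the 33 in every group except KO day 1, where Sqstm1 was higher (384 against 371 CPM per kb). Ctsd had rank 2 or 3 in each group, and Lamp1, Sqstm1, Gabarap and Ctsb filled the rest of the first 6 places in all 6 groups. At the low end, Tfeb had 0.336 CPM per kb in KO and 0.354 in WT at day 4, and Atg16l1 had 1.19 in KO and 0.825 in WT. Mean levels of the members thus ran from 1.90 to 619 CPM in KO and from 2.01 to 936 CPM in WT at day 4. The fewest counts were 7, for Optn in a day 0 library of each genotype, and the values of such genes are the least precise.

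Members of this pathway often carry an E-box that TFEB and TFE3 can bind, CACGTG, whose longer forms TCACGTG and TCACGTGA are the core of the motif known from lysosomal promoters. RefSeq promoter windows of 300 bases (250 before and 50 after the start, GRCm38.p6) were found for 26 of the 33 members, and the entries for Atg12, Atg16l1, Becn1, Ctsb, Ctsh, Map1lc3a and Npc1 were missing from the table. CACGTG, searched on both strands, lay in at least 1 window of 9 of the 26 members (Atg3, Atg5, Atg7, Ctsa, Ctsd, Ctsl, Gla, Lamp1 and Mcoln1), against 8.09% of all genes in the table and 7.15% of all windows of that length. TCACGTG, which contains CACGTG, lay in 7 of the 26, against 4.29% of all genes. TCACGTGA, which contains both and reads the same on either strand, lay in 5 of the 26, against 1.12% of all genes. These 5 windows are shown because they hold the longest form, written 5′ to 3′ along the gene's own strand with TCACGTGA in capitals. They are Atg3 (chr16:45158579-45158878, plus strand), Ctsa (chr2:164833523-164833822, plus strand), Ctsd (chr7:142387778-142388077, minus strand), Gla (chrX:134600956-134601255, minus strand) and Mcoln1 (chr8:3500269-3500568, plus strand).
Atg3: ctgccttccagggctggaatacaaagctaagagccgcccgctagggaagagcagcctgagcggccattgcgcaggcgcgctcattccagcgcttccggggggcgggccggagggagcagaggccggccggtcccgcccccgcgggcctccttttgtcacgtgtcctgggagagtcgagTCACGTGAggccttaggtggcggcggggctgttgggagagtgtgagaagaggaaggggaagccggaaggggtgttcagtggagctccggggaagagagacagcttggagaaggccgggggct
Ctsa: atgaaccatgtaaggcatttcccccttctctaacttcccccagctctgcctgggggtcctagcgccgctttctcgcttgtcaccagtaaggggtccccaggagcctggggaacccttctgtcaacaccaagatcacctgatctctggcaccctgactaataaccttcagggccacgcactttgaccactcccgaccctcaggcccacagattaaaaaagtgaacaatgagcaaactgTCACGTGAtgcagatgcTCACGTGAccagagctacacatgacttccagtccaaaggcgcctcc
Ctsd: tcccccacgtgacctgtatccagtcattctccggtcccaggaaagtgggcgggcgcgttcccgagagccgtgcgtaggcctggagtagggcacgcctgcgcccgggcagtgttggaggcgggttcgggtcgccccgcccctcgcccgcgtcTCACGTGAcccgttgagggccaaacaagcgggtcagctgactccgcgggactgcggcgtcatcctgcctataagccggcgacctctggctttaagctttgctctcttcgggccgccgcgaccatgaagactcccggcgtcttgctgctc
Gla: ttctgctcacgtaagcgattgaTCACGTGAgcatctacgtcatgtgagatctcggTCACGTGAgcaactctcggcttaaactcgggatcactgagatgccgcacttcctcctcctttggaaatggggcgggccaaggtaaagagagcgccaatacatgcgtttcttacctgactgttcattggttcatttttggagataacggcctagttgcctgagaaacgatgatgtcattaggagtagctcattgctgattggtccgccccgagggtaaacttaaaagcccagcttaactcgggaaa
Mcoln1: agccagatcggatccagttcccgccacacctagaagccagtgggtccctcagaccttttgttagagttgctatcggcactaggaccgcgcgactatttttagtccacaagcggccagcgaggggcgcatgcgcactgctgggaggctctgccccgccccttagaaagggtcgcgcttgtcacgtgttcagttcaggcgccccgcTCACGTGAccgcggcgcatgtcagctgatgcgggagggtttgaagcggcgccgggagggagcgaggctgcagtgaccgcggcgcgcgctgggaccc
Ctsa and Gla held the motif 2 times each. A match is a run of letters and was not tested as a binding site. Between day 0 and day 1, relative to the typical gene, Gla rose and Ctsa fell in both genotypes and Atg3, Ctsd and Mcoln1 did not pass the test in either, whereas with library totals all 5 rose in KO.

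**Figure D1:**
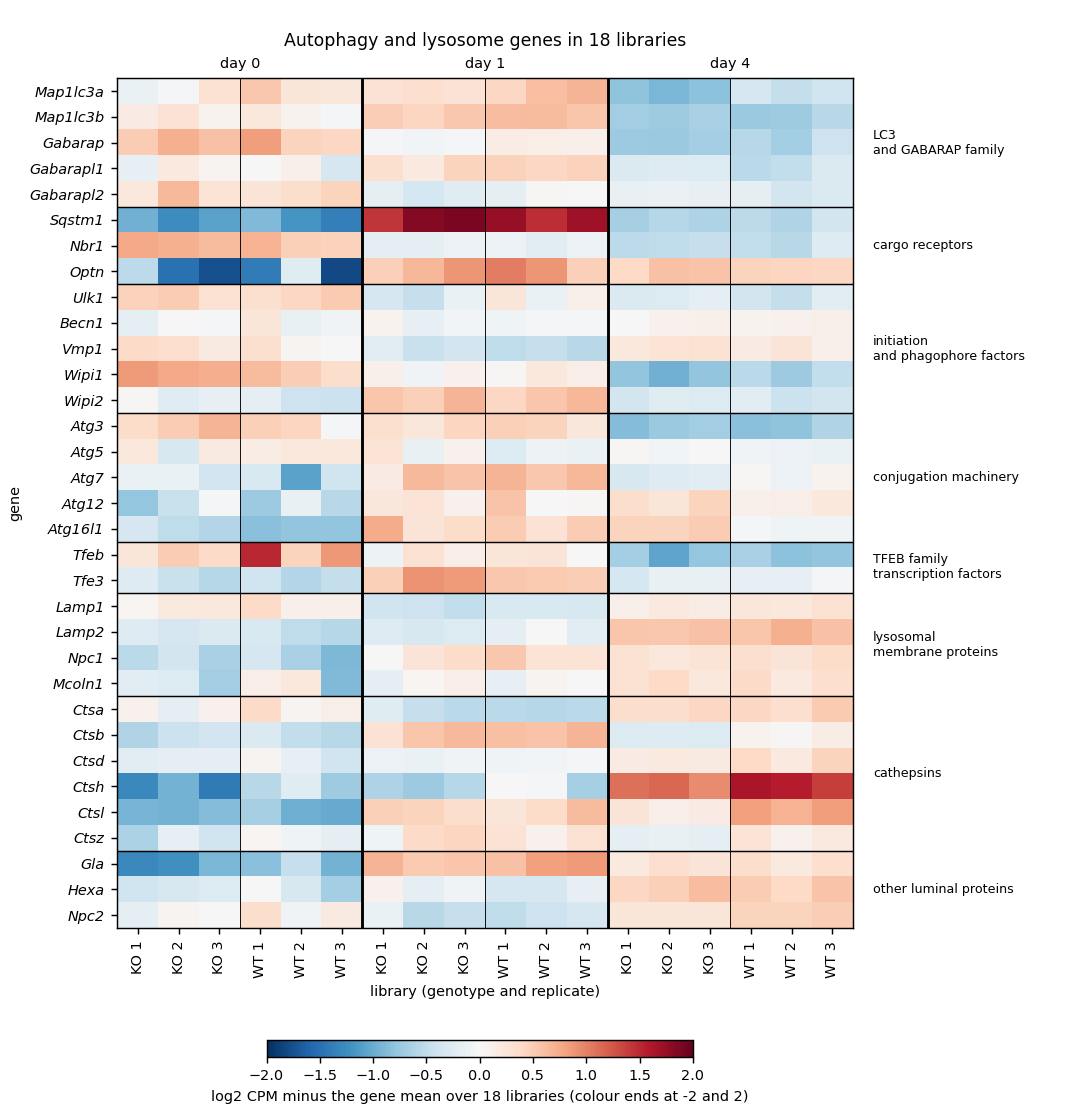
Level of each of the 33 genes (rows, grouped by role) in each of the 18 libraries (columns, by day with KO left of WT), as log2 CPM minus that gene's mean over all libraries. Colour limits are -2 and 2 on the log2 scale. Sqstm1 is darkest at day 1 and Ctsh at day 4 in both genotypes; CPM are relative to the typical gene.

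The members moved in both directions over time, in similar numbers in the 2 genotypes. Between day 0 and day 1, 15 of 33 rose and 9 fell in KO (background: 30.5% of all genes tested were higher and 27.6% lower), and 15 rose and 11 fell in WT (background 28.6% and 26.9%). The median log2 fold change of the members was 0.28 in KO and 0.23 in WT, against 0.05 and 0.01 over all genes tested. Between day 1 and day 4, 8 rose and 15 fell in KO (background 26.2% and 27.1%), and 9 rose and 16 fell in WT (background 26.3% and 26.0%), with medians of -0.16 and -0.29 against 0.04 and 0.05 over all genes. Between day 0 and day 4, 14 rose and 10 fell in KO (background 35.3% and 29.0%), and 17 rose and 10 fell in WT (background 33.5% and 26.9%). The shares of members that rose or fell thus lay above or below those of all genes by comparison, and are descriptions of the list. These directions hold relative to the typical gene: with library totals, 33 rose and 0 fell in KO and 31 rose and 0 fell in WT at day 1, and between day 1 and day 4 only Sqstm1 in KO passed as lower, with 32 members higher in each genotype. The same setting moved most genes up. Of all 13203 genes, 9173 (KO) and 8168 (WT) rose at day 1 over day 0, and 12031 and 12203 at day 4 over day 1.

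Markers of other cell types moved over the same days. The 7 endothelial markers fell at each step in both genotypes and summed to 109.6 to 194 CPM at day 0, 16.9 to 29.8 CPM at day 1 and 0.623 to 2.01 CPM at day 4 in KO, and to 106 to 137, 14.8 to 18.5 and 1.31 to 4.56 CPM in WT. The 6 duct markers summed to 107.0 to 156 CPM at day 0, 458 to 588 CPM at day 1 and 334 to 529 CPM at day 4 in KO, and to 148 to 158, 552 to 679 and 450.1 to 588 CPM in WT. Of the 17 macrophage and monocyte markers, Cd14 was higher at day 1 than at day 0, while the other 16 were lower as a sum. In KO these 16 summed to 25.5 to 48.9, 1.01 to 6.004 and 5.01 to 19.9 CPM at days 0, 1 and 4. In WT they summed to 32.6 to 71.7, 1.48 to 3.62 and 5.90 to 7.30 CPM. Cd14 had 0.691 to 1.46, 33.8 to 47.98 and 32.2 to 43.8 CPM in KO. It had 1.05 to 1.74, 37.6 to 43.2 and 31.8 to 44.5 CPM in WT. All 17 together summed to 26.5 to 50.4, 39.8 to 51.4 and 39.1 to 61.4 CPM in KO. In WT all 17 summed to 33.9 to 73.4, 40.3 to 46.8 and 38.8 to 50.4 CPM. The 9 fibroblast markers summed to 149 to 272 CPM at day 0 and 16.5 to 59.8 CPM at day 1 in KO, and to 108 to 248 and 12.6 to 16.4 CPM in WT. Ccr2, Cd163 and Cx3cr1 were at 0 in every day 1 library, and no endothelial, duct or fibroblast marker was at 0 in a whole group. Their part in the changes over time described here was not tested.

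Among the cargo receptors, Sqstm1, or p62, which carries ubiquitinated proteins into autophagosomes and also holds back KEAP1, had the largest rise of the 33 genes at day 1 and the largest fall after it in both genotypes. In KO libraries Sqstm1 had 199, 164 and 185 CPM at day 0, 1045, 1389 and 1430 CPM at day 1 and 246, 262 and 254 CPM at day 4. In WT libraries it had 212, 171 and 152 CPM at day 0, 1302, 1081 and 1260 CPM at day 1 and 272, 258 and 303 CPM at day 4. Every day 1 library lay above every library of the other days in both genotypes. Every day 4 library lay above every day 0 library. At day 1 over day 0 its log2 fold change was 2.82 (SE 0.13, adjusted p = 3.72e-17) in KO and 2.77 (SE 0.13, adjusted p = 5e-17) in WT, a fold of 7.05 and 6.81. At day 4 over day 1 it was -2.34 (SE 0.13, adjusted p = 1.41e-15) in KO and -2.13 (SE 0.13, adjusted p = 1.02e-14) in WT. With library totals the fall in WT was -0.15 (adjusted p = 0.2) and no longer passed. Sqstm1 (ENSMUSG00000015837) lies on chromosome 11, 50199366 to 50210827 of GRCm38.

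Optn, optineurin, a receptor for damaged mitochondria and bacteria, rose alongside Sqstm1 at day 1 and was the most weakly measured receptor. It had 3.28, 1.67 and 1.39 CPM at day 0, 6.54, 7.497 and 8.66 CPM at day 1 and 6.24, 7.08 and 6.97 CPM at day 4 in KO libraries. It had 1.78, 3.98 and 1.35 CPM at day 0, 9.54, 8.68 and 6.59 CPM at day 1 and 6.404, 6.35 and 6.297 CPM at day 4 in WT libraries. Its day 0 values came from 7 to 19 counts, and no day 1 library overlapped with day 0. The log2 fold change at day 1 over day 0 was 1.79 (SE 0.28, adjusted p = 2.66e-06) in KO and 1.81 (SE 0.29, adjusted p = 3.22e-06) in WT, and at day 4 over day 1 it did not pass the test in KO (-0.16, adjusted p = 0.465) or WT (-0.38, adjusted p = 0.0787). Nbr1, a receptor that binds ubiquitin and LC3 as Sqstm1 does, went the other way. It had 174, 169 and 159.8 CPM at day 0, 89.7, 89.4 and 94.8 CPM at day 1 and 71.3, 72.5 and 75.04 CPM at day 4 in KO libraries. It had 167, 143 and 141 CPM at day 0, 95.2, 88.7 and 95.04 CPM at day 1 and 72.9, 69.9 and 86.1 CPM at day 4 in WT libraries. Its day 0 libraries were the highest in both genotypes, and at day 1 over day 0 its log2 fold change was -0.88 (SE 0.09, adjusted p = 2.68e-09) in KO and -0.69 (SE 0.10, adjusted p = 3.05e-07) in WT, which library totals turned to 0.37 and 0.31.

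The 5 LC3 and GABARAP genes ended below their day 0 level in both genotypes, after a split at day 1. Map1lc3b and Gabarapl1 rose at day 1, Gabarap and Gabarapl2 fell, and Map1lc3a did not pass the test; by day 4 all 5 were called lower relative to day 0 in KO (median log2 fold change -0.86) and in WT (-0.75), whereas with library totals all 5 were higher at day 4 in each genotype and, with totals that leave out acinar enzymes, 3 fell and 0 rose. Of all genes tested, 29.0% fell in KO and 26.9% in WT at day 4 over day 0. The Gabarapl1 calls were lost without KO day 0 replicate 1 or KO day 1 replicate 3 (day 1 in KO, adjusted p 0.0968 and 0.166), KO day 0 replicate 2 (day 4 over day 0 in KO, 0.128) or WT day 0 replicate 2 (in WT, 0.0884). The Gabarapl2 call at day 1 in WT was lost without WT day 1 replicate 1 (0.0523). Map1lc3b, which encodes the LC3 form used as the standard autophagosome marker, had 74.1, 80.9 and 69.5 CPM at day 0, 92.9, 88.5 and 95.6 CPM at day 1 and 40.9, 40.4 and 42.1 CPM at day 4 in KO libraries. It had 76.7, 69.7 and 65.3 CPM at day 0, 102, 102 and 96.98 CPM at day 1 and 39.4, 40.2 and 45.03 CPM at day 4 in WT libraries. The 3 days did not overlap within either genotype, with day 1 highest and day 4 lowest. Its log2 fold change was 0.30 (SE 0.09, adjusted p = 0.00535) in KO and 0.51 (SE 0.09, adjusted p = 2.59e-05) in WT at day 1 over day 0, and -1.17 (SE 0.09, adjusted p = 1.99e-12) in KO and -1.27 (SE 0.09, adjusted p = 3.02e-13) in WT at day 4 over day 1 (0.67 and 0.71 with library totals).

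Map1lc3a, another LC3 gene, had 24.7, 26.1 and 33.5 CPM at day 0, 33.1, 34.2 and 32.9 CPM at day 1 and 15.4, 14.3 and 15.3 CPM at day 4 in KO libraries. It had 39.2, 32.01 and 31.5 CPM at day 0, 36.03, 40.8 and 43.3 CPM at day 1 and 21.3, 19.3 and 20.4 CPM at day 4 in WT libraries. Its day 4 libraries were the lowest of each genotype, with a log2 fold change at day 4 over day 1 of -1.15 (SE 0.10, adjusted p = 7.05e-11) in KO and -0.98 (SE 0.10, adjusted p = 2.02e-09) in WT, where library totals gave 0.68 in KO. Gabarap, the founding member of the GABARAP branch, was the most abundant of the 5 and averaged 235 ± 16.7 CPM in KO and 231 ± 39.4 CPM in WT at day 0, and 93.98 ± 1.98 and 106 ± 9.47 CPM at day 4 (SD, n = 3 each). Its relatives Gabarapl1 and Gabarapl2 were at 35.8 ± 0.363 and 13.9 ± 0.1401 CPM in KO and at 32.1 ± 3.14 and 12.8 ± 0.849 CPM in WT at day 4.

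Among the 5 factors that start the phagophore, Vmp1, Wipi1 and Ulk1 fell at day 1 in both genotypes and Wipi2 rose (with library totals all 5 were higher), and Becn1 did not pass in any of the 6 comparisons over time. Vmp1, an endoplasmic reticulum membrane protein needed for autophagosome formation and known to be induced in acute pancreatitis, had 53.1, 51.4 and 46.02 CPM at day 0, 35.2, 29.9 and 31.3 CPM at day 1 and 47.1, 49.4 and 50.02 CPM at day 4 in KO libraries. It had 50.8, 42.1 and 40.4 CPM at day 0, 28.7, 29.5 and 27.7 CPM at day 1 and 45.6, 48.5 and 43.6 CPM at day 4 in WT libraries. Day 1 was the low point of both genotypes, and no day 1 library reached a library of another day. The log2 fold change was -0.64 (SE 0.10, adjusted p = 2.45e-06) in KO and -0.63 (SE 0.11, adjusted p = 7.04e-06) in WT at day 1 over day 0 (0.60 and 0.37 with library totals), and 0.60 (SE 0.09, adjusted p = 2.42e-06) in KO and 0.68 (SE 0.10, adjusted p = 5.25e-07) in WT at day 4 over day 1. Day 4 over day 0 did not pass in KO (-0.04, adjusted p = 0.728) or WT (0.05, adjusted p = 0.686).

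Wipi1, which reads the lipid PI3P on the growing membrane, had 40.6, 38.3 and 37.5 CPM at day 0, 24.3, 21.6 and 24.05 CPM at day 1 and 13.02, 11.6 and 13.04 CPM at day 4 in KO libraries. It had 35.01, 31.6 and 28.8 CPM at day 0, 22.9, 26.1 and 24.9 CPM at day 1 and 15.5, 13.6 and 16.01 CPM at day 4 in WT libraries. It stepped down at each day without overlap, with a log2 fold change at day 1 over day 0 of -0.73 (SE 0.11, adjusted p = 7.85e-07) in KO and -0.37 (SE 0.11, adjusted p = 0.00684) in WT, turned to 0.51 in KO by library totals. Its paralog Wipi2 averaged 48.9 ± 4.64, 79.2 ± 5.55 and 43.5 ± 1.995 CPM in KO at days 0, 1 and 4, and 42.2 ± 4.201, 77.9 ± 6.62 and 42.3 ± 3.21 CPM in WT (SD, n = 3 each). Ulk1, the kinase that mTORC1 inhibits and starvation releases, had 49.4, 50.8 and 44.2 CPM at day 0, 28.2, 26.1 and 32.8 CPM at day 1 and 29.4, 29.7 and 31.7 CPM at day 4 in KO libraries. It had 44.6, 47.5 and 51.2 CPM at day 0, 42.2, 32.7 and 38.6 CPM at day 1 and 27.6, 25.7 and 30.5 CPM at day 4 in WT libraries. The log2 fold change at day 1 over day 0 was -0.73 (SE 0.11, adjusted p = 1.48e-06) in KO (0.51 with library totals) and -0.34 (SE 0.11, adjusted p = 0.0119) in WT, and at day 4 over day 1 it did not pass in KO (0.06, adjusted p = 0.636) but did in WT (-0.44, SE 0.10, adjusted p = 0.000643). The test of that difference is given with the changes by genotype. In WT at day 1 the Wipi1 call was lost without WT day 0 replicate 1 (adjusted p = 0.057) and the Ulk1 call without WT day 0 replicate 3 or WT day 1 replicate 2 (0.0682 and 0.106). Becn1, Beclin 1 of the lipid kinase complex that makes PI3P, averaged 30.3 ± 2.19, 30.8 ± 2.504 and 33.3 ± 1.12 CPM in KO at days 0, 1 and 4, and 32.2 ± 4.84, 30.7 ± 0.718 and 33.7 ± 0.562 CPM in WT (SD, n = 3 each).

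The conjugation machinery links LC3 to lipid. Atg7 activates, Atg3 transfers, and Atg5, joined to Atg12 and bound by Atg16l1, places the product on the membrane. Atg7, Atg12 and Atg16l1 rose at day 1 in both genotypes, with log2 fold changes of 0.69, 0.60 and 0.94 in KO and 1.18, 0.68 and 1.24 in WT. Atg5 fell in WT (-0.36, SE 0.15, adjusted p = 0.0402) and had a log2 fold change of 0.03 in KO (adjusted p = 0.857), but with library totals all 5 were higher at day 1 in each genotype. The Atg5 call was lost with no filter, with totals that leave out acinar enzymes, and without WT replicate 1 at every day. It was also lost on leaving out KO day 1 replicate 3, any KO day 4 library or any WT library (adjusted p 0.0518 to 0.133 over these 13 libraries). The Atg12 call was lost without KO day 0 replicate 1 in KO (0.106) and WT day 1 replicate 1 in WT (0.0649). Atg3 had 26.1, 28.7 and 32.3 CPM at day 0, 25.02, 23.4 and 27.1 CPM at day 1 and 10.98, 12.1 and 12.5 CPM at day 4 in KO libraries. It had 28.1, 26.99 and 19.9 CPM at day 0, 27.9, 27.5 and 23.5 CPM at day 1 and 11.3, 11.5 and 13.2 CPM at day 4 in WT libraries. All day 4 libraries lay below all others, and at day 4 over day 1 the log2 fold change was -1.08 (SE 0.11, adjusted p = 1.54e-09) in KO and -1.13 (SE 0.11, adjusted p = 1.07e-09) in WT, where library totals gave 0.85 in WT. Atg16l1 had 6.57, 5.86 and 5.58 CPM at day 0, 13.9, 9.95 and 10.7 CPM at day 1 and 11.3, 11.3 and 11.9 CPM at day 4 in KO libraries. It had 4.68, 4.81 and 4.83 CPM at day 0, 11.9, 10.1 and 11.8 CPM at day 1 and 8.11, 7.82 and 7.92 CPM at day 4 in WT libraries. Its day 4 KO libraries stayed near their day 1 level (log2 fold change -0.01, adjusted p = 0.957), while in WT it fell (-0.50, SE 0.13, adjusted p = 0.0019).

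The transcription factors Tfeb and Tfe3 moved apart at day 1. Tfe3 rose in both genotypes (1.17 in KO and 1.01 in WT) and fell by day 4 (-0.97 and -0.65). With library totals both genes rose at each step in each genotype, except Tfeb in WT at day 1, which did not pass. Tfeb was the lower of the pair, with 3.98, 4.81 and 4.38 CPM at day 0, 3.14, 4.16 and 3.71 CPM at day 1 and 2.11, 1.63 and 1.98 CPM at day 4 in KO libraries. It had 9.59, 4.603 and 6.18 CPM at day 0, 3.98, 4.03 and 3.34 CPM at day 1 and 2.15, 1.91 and 1.96 CPM at day 4 in WT libraries. WT day 0 replicate 1 was the highest library by a wide margin. At day 1 over day 0 the log2 fold change was -0.83 (SE 0.25, adjusted p = 0.00571) in WT, and -0.25 in KO (adjusted p = 0.419). The WT value did not pass without WT day 0 replicate 1 (-0.50, adjusted p = 0.12) and was 0.18 with library totals. At day 4 over day 1 it fell in KO (-0.94, SE 0.21, adjusted p = 0.000474) and in WT (-0.91, SE 0.22, adjusted p = 0.00109), and its day 4 values came from 97 to 130 counts per KO library and 109 to 120 per WT library.

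**Figure D2:**
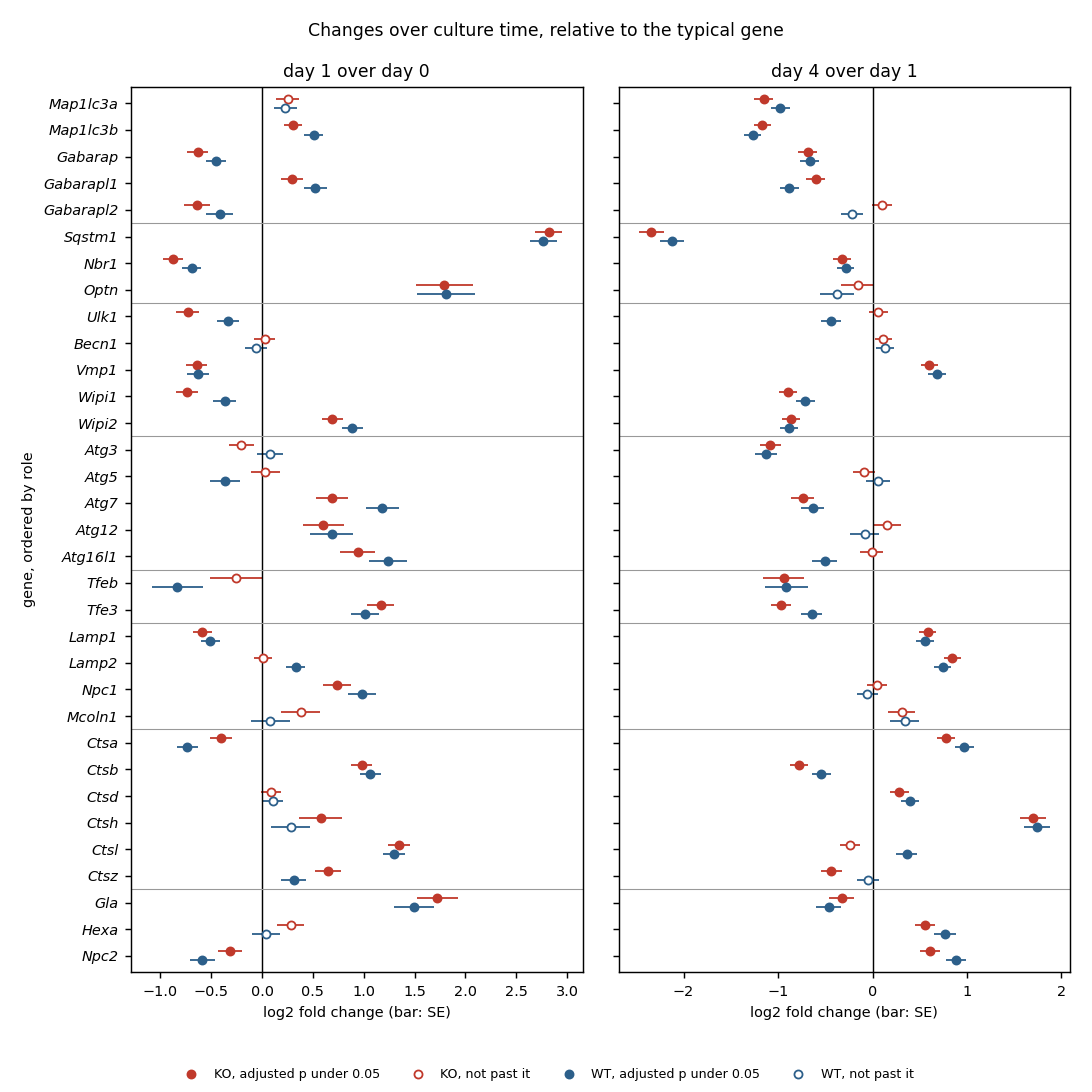
Log2 fold change (x axis) of each of the 33 genes (y axis, by role) at day 1 over day 0 (left) and day 4 over day 1 (right), KO above WT in each row. Points are edgeR estimates, bars are 1 SE, and filled points have an adjusted p under 0.05. Sqstm1 reaches 2.82 and 2.77 at day 1 and Ctsh 1.70 and 1.74 at day 4 over day 1. Values are relative to the typical gene, and with library totals 33 members in KO and 31 in WT rose at day 1. In that setting 9173 (KO) and 8168 (WT) of all 13203 genes rose at day 1.

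Lysosomal membrane genes were mostly at or above their day 0 level at day 4: Lamp2, Npc1 and Mcoln1 rose and Lamp1 did not pass in either genotype, and with library totals all 4 rose. Of all genes tested, 35.3% rose in KO and 33.5% in WT between these days. In WT the Mcoln1 call was lost without WT day 0 replicate 3 or WT day 4 replicate 1 or 3 (0.14 to 0.42, adjusted p 0.0644 to 0.488). That WT call was also lost with DESeq2 size factors and with only the groups compared. Lamp2, whose forms protect the lysosomal membrane and take part in chaperone-mediated autophagy, had 62.05, 58.98 and 60.96 CPM at day 0, 62.04, 59.5 and 61.6 CPM at day 1 and 109, 109 and 111 CPM at day 4 in KO libraries. It had 59.98, 52.5 and 50.4 CPM at day 0, 66.04, 74.1 and 64.6 CPM at day 1 and 109, 122 and 111 CPM at day 4 in WT libraries. Day 4 lay far above the other days. At day 4 over day 1 the log2 fold change was 0.85 (SE 0.09, adjusted p = 1.7e-09) in KO and 0.74 (SE 0.09, adjusted p = 2.39e-08) in WT. At day 1 over day 0 it did not pass in KO (0.01, adjusted p = 0.943) and passed in WT (0.33, SE 0.09, adjusted p = 0.00365). The WT call was lost in limma on FPKM (adjusted p 0.174 and 0.167 with pseudocounts 1 and 0.1). It was also lost with only the groups compared (0.26, adjusted p = 0.0539). Lamp1, the most abundant of the membrane genes, dipped at day 1 (-0.59, SE 0.09, adjusted p = 2.43e-06 in KO and -0.51, SE 0.09, adjusted p = 2.42e-05 in WT) and averaged 282 ± 8.63 CPM in KO and 303 ± 9.31 CPM in WT at day 4. Limma on FPKM did not call the Lamp1 dip in either genotype. Npc1, which moves cholesterol out of the lysosome, rose at day 1 (0.74 in KO and 0.98 in WT) and then did not pass between day 1 and day 4 (0.04 and -0.05). Mcoln1, a calcium channel of the lysosome, averaged 7.92 ± 1.34 CPM in KO and 9.63 ± 3.503 CPM in WT at day 0, and 12.8 ± 0.847 and 12.8 ± 0.8902 CPM at day 4.

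Of the 6 cathepsins among the members, 4 rose and 0 fell at day 4 over day 0 in KO (background: 35.3% of all genes tested were higher and 29.0% lower). In WT 5 rose and 0 fell (background 33.5% and 26.9%). Library totals kept this direction for all 6, a setting in which 12256 (KO) and 12345 (WT) of all 13203 genes rose. The exceptions were Ctsb and Ctsz in KO and Ctsz in WT, which did not pass. The WT call for Ctsa was lost without WT day 0 replicate 2 or 3 or WT day 4 replicate 1 or 3 (adjusted p 0.0584 to 0.173). That call was also lost with DESeq2 size factors, the DESeq2 test and only the groups compared. Ctsl had 284, 282 and 298 CPM at day 0, 755, 739 and 698 CPM at day 1 and 651, 598 and 609 CPM at day 4 in KO libraries. It had 342, 277 and 269 CPM at day 0, 645, 700.4 and 841 CPM at day 1 and 957, 882 and 969 CPM at day 4 in WT libraries. Every later library lay above every day 0 library, and WT day 4 held the highest values. The log2 fold change at day 1 over day 0 was 1.34 (SE 0.11, adjusted p = 8.1e-12) in KO and 1.30 (SE 0.11, adjusted p = 2.08e-11) in WT. At day 4 over day 1 it was -0.24 in KO (adjusted p = 0.061) and 0.36 (SE 0.11, adjusted p = 0.00562) in WT, where it did not pass without WT day 1 replicate 1 (0.28, adjusted p = 0.0557).

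Ctsb, its counterpart on trypsinogen, peaked at day 1. It had 181, 205 and 212 CPM at day 0, 339, 407 and 432 CPM at day 1 and 228, 231 and 229 CPM at day 4 in KO libraries. It had 225, 195 and 188 CPM at day 0, 421, 412 and 441 CPM at day 1 and 289, 280.3 and 307 CPM at day 4 in WT libraries. Day 1 libraries lay above those of both other days in each genotype. The log2 fold change was 0.98 (SE 0.10, adjusted p = 1.09e-09) in KO and 1.07 (SE 0.10, adjusted p = 2.35e-10) in WT at day 1 over day 0, and -0.78 (SE 0.10, adjusted p = 1.02e-07) in KO and -0.54 (SE 0.10, adjusted p = 3.21e-05) in WT at day 4 over day 1, but library totals gave 1.06 in KO and 1.44 in WT and FPKM values gave 0.10 in WT.

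Ctsh, an aminopeptidase, was low in fresh cells and had the largest rise of the members between day 1 and day 4 in both genotypes. It had 4.15, 5.23 and 3.79 CPM at day 0, 6.604, 6.13 and 6.804 CPM at day 1 and 21.6, 22.4 and 19.4 CPM at day 4 in KO libraries. It had 6.91, 8.58 and 6.18 CPM at day 0, 10.1, 9.82 and 6.404 CPM at day 1 and 31.4, 30.1 and 26.3 CPM at day 4 in WT libraries. Every day 4 library was above every earlier one. The log2 fold change at day 4 over day 1 was 1.70 (SE 0.13, adjusted p = 7e-12) in KO and 1.74 (SE 0.13, adjusted p = 3.67e-12) in WT. Ctsa, a carboxypeptidase that also shields other lysosomal enzymes, had 56.3, 46.4 and 56.6 CPM at day 0, 45.3, 38.6 and 36.6 CPM at day 1 and 68.1, 68.2 and 70.8 CPM at day 4 in KO libraries. It had 69.6, 55.2 and 57.7 CPM at day 0, 36.8, 36.1 and 36.8 CPM at day 1 and 70.8, 67.4 and 76.8 CPM at day 4 in WT libraries. It fell at day 1 (-0.40, SE 0.11, adjusted p = 0.0016 in KO and -0.73, SE 0.11, adjusted p = 8.97e-07 in WT, but 0.27 in WT with library totals) and rose by day 4 (0.78, SE 0.10, adjusted p = 7.64e-08 and 0.97, SE 0.10, adjusted p = 1.61e-09 over day 1). Ctsz, a carboxypeptidase with a role in cell adhesion, had 25.2, 35.1 and 29.7 CPM at day 0, 36.8, 51.3 and 52.7 CPM at day 1 and 34.5, 35.3 and 34.3 CPM at day 4 in KO libraries. It had 40.1, 36.8 and 34.8 CPM at day 0, 48.2, 41.5 and 48.5 CPM at day 1 and 47.2, 41.6 and 45.01 CPM at day 4 in WT libraries. It rose at day 1 in both genotypes (0.65, SE 0.13, adjusted p = 5.93e-05 in KO and 0.31, SE 0.13, adjusted p = 0.0376 in WT) and fell at day 4 over day 1 in KO (-0.43, SE 0.11, adjusted p = 0.00147), with -0.05 (adjusted p = 0.742) in WT. The rise in WT did not pass with DESeq2 or its size factors, limma, only the groups compared, no WT replicate 1 at every day, or without WT day 0 replicate 2 or 3 or WT day 1 replicate 1 or 3 (adjusted p 0.0801 to 0.123 over these 4 libraries). Ctsd, an aspartic protease, averaged 335 ± 5.604, 356 ± 7.51 and 434 ± 6.45 CPM in KO at days 0, 1 and 4, and 345 ± 54.7, 371 ± 4.697 and 489 ± 42.1 CPM in WT (SD, n = 3 each).

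The other luminal genes Gla, Hexa and Npc2 all rose at day 4 over day 0 in both genotypes, with library totals as well. Of all genes tested, 35.3% rose in KO and 33.5% in WT in that comparison. Gla, α-galactosidase A, which removes galactose from glycolipids, had 2.59, 2.72 and 3.39 CPM at day 0, 10.2, 9.13 and 9.28 CPM at day 1 and 7.27, 7.99 and 7.57 CPM at day 4 in KO libraries. It had 3.57, 4.603 and 3.28 CPM at day 0, 9.54, 11.3 and 11.4 CPM at day 1 and 8.07, 7.26 and 7.99 CPM at day 4 in WT libraries. All day 1 and day 4 libraries lay above all day 0 libraries, which held as few as 13 counts. At day 1 over day 0 the log2 fold change was 1.72 (SE 0.20, adjusted p = 1.2e-08) in KO and 1.49 (SE 0.19, adjusted p = 1.09e-07) in WT, and at day 4 over day 1 Gla fell (-0.33 and -0.47), a direction that library totals turned. The later fall in KO was also lost with no filter, limma on log2(FPKM + 0.1), and on leaving out KO day 1 replicate 1 or 2 or any KO day 4 library (adjusted p 0.0524 to 0.121 over these 5). Npc2, which binds cholesterol in the lumen and hands it to NPC1, took a different course. It had 26.4, 31.4 and 30.1 CPM at day 0, 27.7, 20.6 and 22.04 CPM at day 1 and 35.9, 35.8 and 35.8 CPM at day 4 in KO libraries. It had 38.8, 28.9 and 34.4 CPM at day 0, 21.2, 22.6 and 24.04 CPM at day 1 and 41.3, 41.1 and 42.8 CPM at day 4 in WT libraries. It fell at day 1 (-0.32 in KO, with libraries of the 2 days overlapping, and -0.59 in WT) and rose at day 4 over day 1 (0.61, SE 0.10, adjusted p = 1.03e-05 in KO and 0.88, SE 0.11, adjusted p = 3.51e-08 in WT). The early fall in KO was lost without replicate 2 or 3 of KO day 0 or KO day 1 (adjusted p 0.0764 to 0.144). At day 4 over day 0 the Npc2 call was lost without KO day 0 replicate 1 in KO (0.122) and WT day 0 replicate 2 in WT (0.155). It was also lost with DESeq2 size factors in both genotypes, and in WT with only the groups compared. Hexa, the α subunit of β-hexosaminidase, rose in the same interval (0.55 in KO and 0.77 in WT), with 31.5 ± 2.23 CPM in KO and 31.3 ± 2.01 CPM in WT at day 4.

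**Figure D3:**
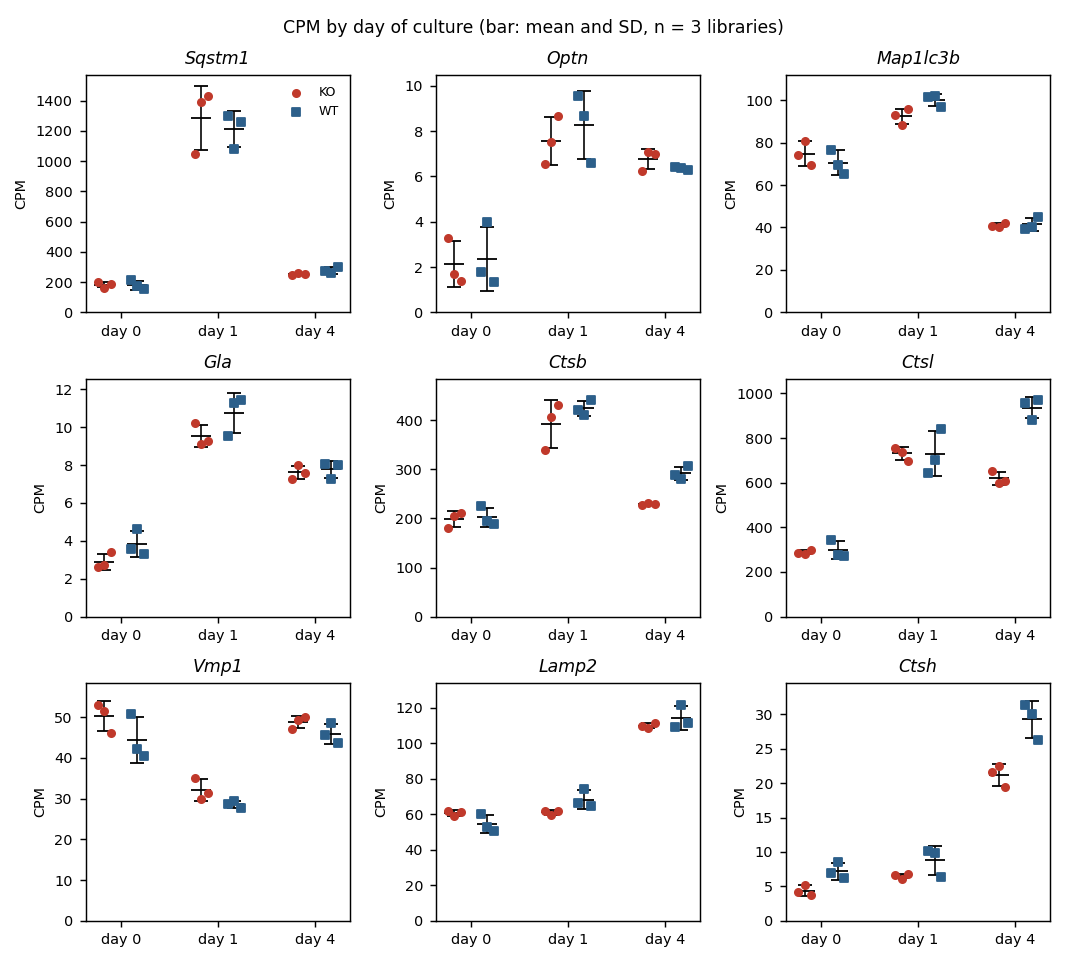
CPM (y axis, from 0) of 9 members at days 0, 1 and 4 (x axis), KO circles left of WT squares. Each point is 1 library, and bars give the mean and SD of 3 libraries. Means of Sqstm1, Optn, Map1lc3b, Gla and Ctsb are highest at day 1, though Optn libraries of days 1 and 4 overlap in KO. Vmp1 is lowest at day 1, and Lamp2 and Ctsh are highest at day 4. Ctsl at day 4 separates KO (598 to 651 CPM) from WT (882 to 969 CPM). CPM are relative to the typical gene, and the orders of days can differ with library totals.

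Between genotypes, no member passed the test in freshly isolated cells or at day 1, and 6 passed at day 4. At day 0 edgeR called 0 of 33 members (background 1.17%), with 5 at an unadjusted p under 0.05, against 1747 of 13203 genes. DESeq2 called 0 as well, and limma called 0 on log2(FPKM + 1) and 2, Ctsh and Ctsl, on log2(FPKM + 0.1). The member with the smallest p was Ctsh, with 4.15, 5.23 and 3.79 CPM in KO and 6.91, 8.58 and 6.18 CPM in WT libraries, without overlap. Its log2 fold change was -0.72 (SE 0.24, adjusted p = 0.155). Wipi1 had 40.6, 38.3 and 37.5 CPM in KO and 35.01, 31.6 and 28.8 CPM in WT libraries, also without overlap (0.29, SE 0.12, adjusted p = 0.25). Tfeb had 3.98, 4.81 and 4.38 CPM in KO and 9.59, 4.603 and 6.18 CPM in WT libraries, with overlap (-0.63, SE 0.27, adjusted p = 0.312). Over the 33 genes the median log2 fold change of KO over WT was 0.01, and 0.00 over all genes tested. At day 0 the 8 B and T cell markers summed to 0 to 0.418 CPM in KO and 10.3 to 24.7 CPM in WT. The 6 islet markers summed to 335 to 474 CPM in KO and 552 to 1836 CPM in WT. The part of these cells in the day 0 values was not tested.

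At day 1, edgeR again called 0 of 33 members (background 1.45%), with 4 at an unadjusted p under 0.05, against 1823 of 13203 genes. DESeq2 called 1, Ulk1, and limma on FPKM called 1, Sqstm1, with either pseudocount. With library totals 13 members passed, in a setting that shifted the median of all genes by 0.32. Ulk1 came nearest to the threshold, with 28.2, 26.1 and 32.8 CPM in KO and 42.2, 32.7 and 38.6 CPM in WT libraries, which overlapped narrowly (log2 fold change -0.39, SE 0.11, adjusted p = 0.064). Ctsh had 6.604, 6.13 and 6.804 CPM in KO and 10.1, 9.82 and 6.404 CPM in WT libraries (-0.43, SE 0.16, adjusted p = 0.2). Map1lc3a had 33.1, 34.2 and 32.9 CPM in KO and 36.03, 40.8 and 43.3 CPM in WT libraries (-0.26, SE 0.10, adjusted p = 0.241; 0.055 with library totals). Of these, Ctsh and Map1lc3a passed at day 4 with the same sign.

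At day 4, 4 of the 6 cathepsin genes among the members were lower in KO. Of 33 members, 6 passed (background 10.2%), 9 at an unadjusted p under 0.05 against 3209 of 13203 genes. Of these 6, 4 cathepsins and Map1lc3a were lower and Atg16l1 was higher, each without overlap between the 3 KO and 3 WT libraries. The lack of overlap describes the same values as the test and is no separate evidence. Ctsl had 651, 598 and 609 CPM in KO against 957, 882 and 969 CPM in WT (log2 fold change -0.60, SE 0.11, adjusted p = 0.000382, 1.51-fold lower). Ctsh had 21.6, 22.4 and 19.4 CPM in KO against 31.4, 30.1 and 26.3 CPM in WT (-0.47, SE 0.11, adjusted p = 0.00532). Ctsb had 228, 231 and 229 CPM in KO against 289, 280.3 and 307 CPM in WT (-0.35, SE 0.10, adjusted p = 0.0191). The 3 genes share the papain-like protease fold with Ctsz, as do Ctsf, Ctsk, Ctso and Ctss of the further lists, which did not pass. Ctsz had 34.5, 35.3 and 34.3 CPM in KO against 47.2, 41.6 and 45.01 CPM in WT (-0.36, SE 0.11, adjusted p = 0.0258). The other 2 cathepsins among the members did not pass, with log2 fold changes of -0.17 for Ctsd (adjusted p = 0.298) and -0.05 for Ctsa (adjusted p = 0.78). At day 4 Ctsf, Ctsk, Ctso and Ctss averaged 4.77, 0.521, 3.59 and 1.49 CPM in KO. In WT they averaged 5.60, 0.744, 3.20 and 1.25 CPM. Outside the cathepsins, Map1lc3a had 15.4, 14.3 and 15.3 CPM in KO against 21.3, 19.3 and 20.4 CPM in WT (-0.44, SE 0.10, adjusted p = 0.00317), and Atg16l1 had 11.3, 11.3 and 11.9 CPM in KO against 8.11, 7.82 and 7.92 CPM in WT (0.53, SE 0.12, adjusted p = 0.00288). Membrane and other luminal lysosomal genes did not pass, with log2 fold changes from -0.22 for Npc2 to 0.01 for Hexa.

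In GRCm38, Ctsl (ENSMUSG00000021477) lies on chromosome 13, 64363214 to 64370306, Ctsh (ENSMUSG00000032359) on chromosome 9, 90054152 to 90076089, Ctsb (ENSMUSG00000021939) on chromosome 14, 63122462 to 63145919, Ctsz (ENSMUSG00000016256) on chromosome 2, 174427493 to 174439039, Map1lc3a (ENSMUSG00000027602) on chromosome 2, 155276297 to 155278073 and Atg16l1 (ENSMUSG00000026289) on chromosome 1, 87755870 to 87792428. All 6 are annotated as protein-coding genes.

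Calls for Ctsb and Ctsz were lost in edgeR on leaving out any KO day 4 replicate (adjusted p 0.0746 to 0.0802 for Ctsb and 0.0882 to 0.105 for Ctsz). They were also lost without WT day 4 replicate 1 (0.061 and 0.128) or 3 (0.0891 and 0.0786). The call for Ctsh was lost without KO day 4 replicate 3 (0.0652) or WT day 4 replicate 1 (0.0601), so that 3 to 6 members passed. Ctsl, Map1lc3a and Atg16l1 passed in every such fit, and with library totals, which shifted the median of all genes by 0.17, Ctsl, Atg16l1 and Gabarapl1 passed. DESeq2 called these 6 and Wipi1, Atg7 and Npc2, while limma on FPKM called only Ctsl of the 6, beside Sqstm1 with either pseudocount and Lamp1 with a pseudocount of 1. Without WT replicate 1 at every day, 5 of the 6 remained and Ctsz did not (adjusted p = 0.107). Other cell types moved with genotype at day 4. The 9 fibroblast markers summed to 26.8 to 61.2 CPM in KO and 249 to 347 CPM in WT libraries, 8 of 9 were lower in KO, and none of the 9 was at 0. The 17 macrophage and monocyte markers summed to 39.1 to 61.4 CPM in KO and 38.8 to 50.4 CPM in WT. Ccr2 was at 0 in both. Cd14 made 32.2 to 43.8 CPM of the sum in KO and 31.8 to 44.5 CPM in WT. The 11 acinar markers summed to 13906 to 17353 CPM in KO and 19384 to 29827 CPM in WT, 5 lower and 1 higher in KO. The part of these cells in the cathepsin result was not tested.

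**Figure D4:**
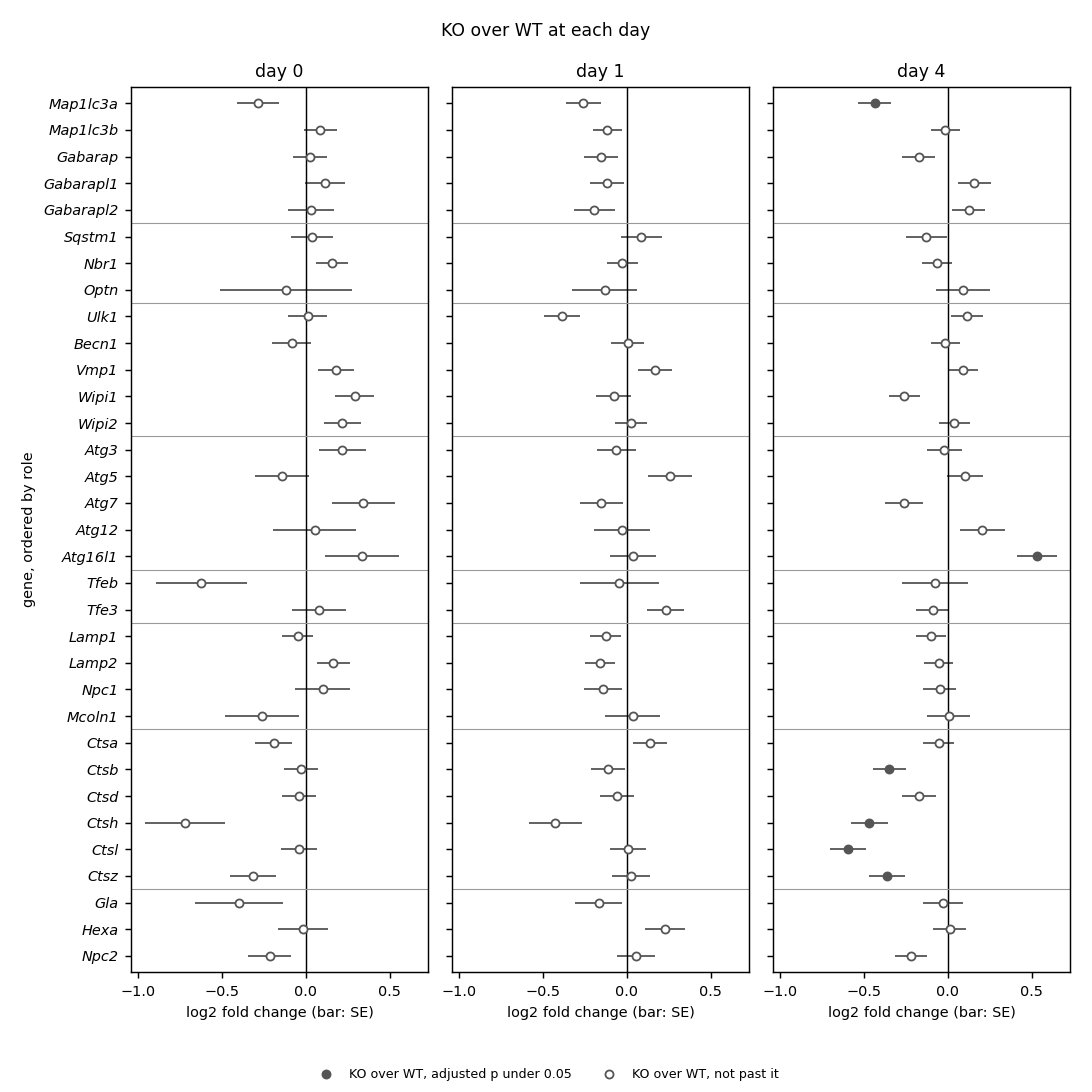
Log2 fold change of KO over WT (x axis, 1 scale for the 3 panels) for each of the 33 genes (y axis, by role) at days 0, 1 and 4. Points are edgeR estimates, bars are 1 SE and filled points have an adjusted p under 0.05. No point is filled at days 0 and 1. At day 4 Ctsl (-0.60), Ctsh (-0.47), Map1lc3a (-0.44), Ctsz (-0.36) and Ctsb (-0.35) are filled on the left and Atg16l1 (0.53) on the right. With library totals these 6 kept their signs, but only Ctsl and Atg16l1 of them passed.

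**Figure D5:**
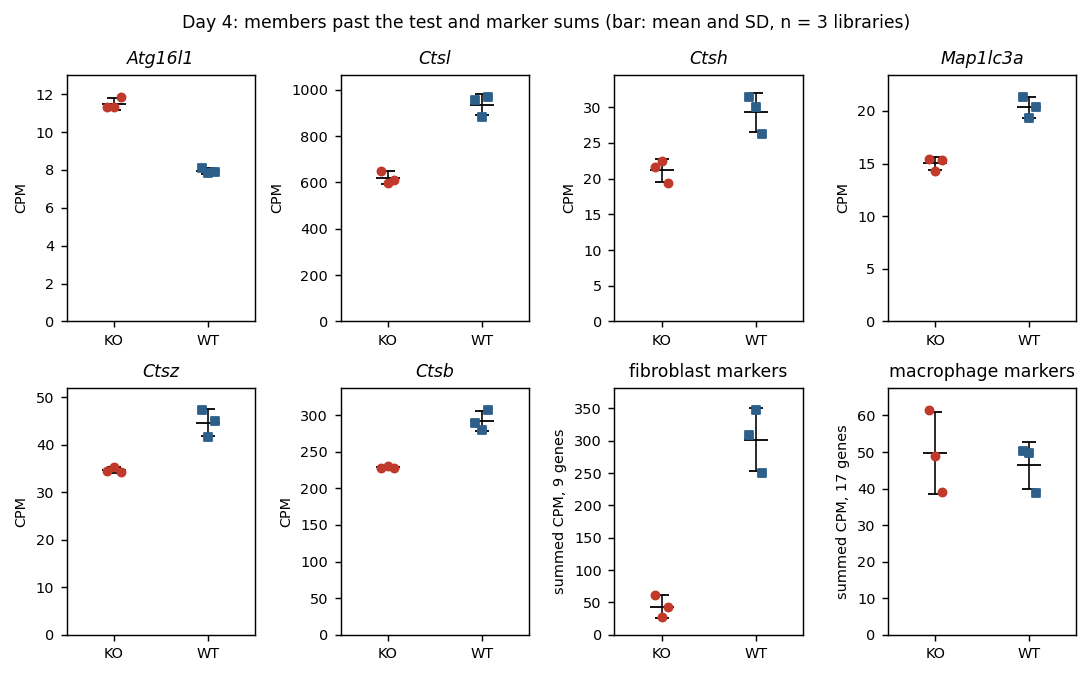
CPM (y axis, from 0) at day 4 in the 3 KO libraries (left) and 3 WT libraries (right) for the 6 members past the test, and the summed CPM of 9 fibroblast and 17 macrophage markers in the same libraries. Points are libraries, and bars give the mean and SD. KO and WT libraries do not overlap for the 6 genes or the fibroblast sum (26.8 to 61.2 CPM in KO, 249 to 347 CPM in WT), and overlap for the macrophage sum. The 6 genes were picked by the test on these same libraries.

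The change between days differed by genotype for 1 member. From day 0 to day 1, the difference of the log2 fold changes (KO minus WT) passed for 0 of 33 members in edgeR (background 0.0985%) and 0 in DESeq2, with 5 at an unadjusted p under 0.05 against 1413 of 13203 genes. Here limma on FPKM called 1, Sqstm1, with either pseudocount. The smallest p-values were those of Ulk1 (-0.40, SE 0.16, adjusted p = 0.344), Lamp2 (-0.32, SE 0.13, adjusted p = 0.366) and Wipi1 (-0.37, SE 0.16, adjusted p = 0.379), all lower in KO. From day 1 to day 4, 1 member passed (background 2.60%), Ctsl, with -0.60 (SE 0.15, adjusted p = 0.026): its log2 fold change was -0.24 in KO and 0.36 in WT. That call was lost (adjusted p 0.053 to 0.121) on leaving out KO day 1 replicate 2, KO day 4 replicate 2 or 3, WT day 1 replicate 1 or 2, or WT day 4 replicate 1 or 3, and without WT replicate 1 at every day (-0.50, adjusted p = 0.0997). Ulk1 had a difference of 0.50 (adjusted p = 0.0583), and DESeq2 called it and Atg16l1 beside Ctsl. For the other genes above that passed in 1 genotype and not in the other, such as Lamp2 at day 1, no difference was shown.

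Around the members, 149 further genes of the same pathway were examined in 8 lists. Over all genes tested, 30.5% rose and 27.6% fell in KO and 28.6% and 26.9% in WT at day 1 over day 0, and 26.2% and 27.1% in KO and 26.3% and 26.0% in WT at day 4 over day 1. These shares are the background of every list below, and the lists are described by their counts alone. With library totals the background was 9173 (KO) and 8168 (WT) of 13203 genes that rose at day 1 over day 0. At day 4 over day 1 it was 12031 and 12203. Of 37 lysosomal hydrolases, 6 rose and 18 fell at day 1 in KO and 4 rose and 19 fell in WT, whereas with library totals 22 rose and 6 fell in KO and 18 rose and 7 fell in WT. Between day 1 and day 4, 23 rose and 5 fell in KO and 25 rose and 5 fell in WT, all 37 rising with library totals. Gm2a, the activator protein for ganglioside breakdown, was among the lowest at day 1 (-2.60, SE 0.22, adjusted p = 1.55e-11 in KO and -2.70, SE 0.23, adjusted p = 1.95e-11 in WT), and Lgmn, legumain, a protease that processes cathepsins, was among the highest (1.62, SE 0.21, adjusted p = 8.47e-08 in KO and 1.54, SE 0.24, adjusted p = 1.84e-06 in WT). Of the 18 V-ATPase genes, whose pump acidifies the lysosome, 8 rose and 2 fell in KO and 7 rose and 2 fell in WT between day 1 and day 4, with all 18 rising with library totals. Atp6v1a, the catalytic subunit, rose by 1.38 in KO and 1.15 in WT on the log2 scale.

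Of 11 other autophagy receptors, 5 rose and 4 fell in KO and 6 rose and 3 fell in WT at day 1, and between day 1 and day 4 0 rose and 10 fell in each genotype, whereas with library totals 10 rose and 1 fell in each. Bnip3, a receptor for mitochondria that hypoxia induces, had 6.39, 8.57 and 7.77 CPM at day 0, 39.2, 41.6 and 60.6 CPM at day 1 and 4.31, 4.997 and 5.09 CPM at day 4 in KO libraries. It had 10.7, 6.28 and 11.97 CPM at day 0, 57.4, 75.9 and 76.1 CPM at day 1 and 5.29, 6.197 and 5.61 CPM at day 4 in WT libraries. Its day 1 libraries were far above the rest, with log2 fold changes of 2.64 (SE 0.21, adjusted p = 2.91e-10) in KO and 2.85 (SE 0.20, adjusted p = 4.59e-11) in WT at day 1 over day 0 and -3.29 (SE 0.16, adjusted p = 1.37e-13) and -3.61 (SE 0.16, adjusted p = 2.24e-14) at day 4 over day 1. Of 22 other autophagy factors, 2 rose and 9 fell in KO and 3 rose and 10 fell in WT between day 1 and day 4 (all 22 rose with library totals), among them Atg9a, which supplies membrane (-1.004 in KO and -1.11 in WT). Of 13 fusion factors, 1 rose and 5 fell in KO and 1 rose and 4 fell in WT in the same interval, and Vamp8, a SNARE of autophagosome fusion, fell by 1.11 in KO and 1.06 in WT on the log2 scale, but all 13 rose with library totals. The 17 further membrane genes, 12 sorting genes and 19 regulators of mTORC1 and TFEB had 4, 6 and 3 that rose and 8, 2 and 5 that fell in KO, and 5, 5 and 1 that rose and 7, 3 and 4 that fell in WT, between day 1 and day 4, all rising with library totals.

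Between genotypes, 1 of these 149 genes passed at day 0 (0.671%, background 1.17%), 1 at day 1 (0.671%, background 1.45%) and 7 at day 4 (4.70%, background 10.2%). At days 0 and 1 the share rests on 1 gene and is not read as a result about the lists. At day 4 it was below that of all genes tested, which describes these lists. Ncoa4, the receptor that brings ferritin to the lysosome and so releases iron, had 10.9, 11.9 and 10.8 CPM at day 0, 18.3, 17.6 and 20.9 CPM at day 1 and 15.6, 15.3 and 14.9 CPM at day 4 in KO libraries. It had 5.35, 5.44 and 7.34 CPM at day 0, 25.8, 21.2 and 27.5 CPM at day 1 and 16.1, 16.4 and 16.3 CPM at day 4 in WT libraries. It was higher in every KO library than in every WT library at day 0 (0.88, SE 0.18, adjusted p = 0.0126), and its change from day 0 to day 1 differed by -1.27 (SE 0.22, adjusted p = 0.00601), being 0.76 in KO and 2.03 in WT. Without WT day 0 replicate 2 neither Ncoa4 value passed (0.81, adjusted p = 0.0738, and -1.203, adjusted p = 0.057), nor did the day 0 value without WT replicate 1 at every day (0.80, adjusted p = 0.0515). The day 0 value was also lost with only the groups compared (0.85, adjusted p = 0.151). With library totals the difference in change did not pass (-1.02, adjusted p = 0.122). Fam134b, a receptor for endoplasmic reticulum, had 110.4, 153 and 130.5 CPM at day 0, 45.8, 52.01 and 57.1 CPM at day 1 and 30.9, 32.1 and 32.8 CPM at day 4 in KO libraries. It had 98.8, 110.0 and 137 CPM at day 0, 87.4, 91.8 and 73.04 CPM at day 1 and 29.03, 31.8 and 33.7 CPM at day 4 in WT libraries. It was lower in every KO library at day 1 (-0.70, SE 0.12, adjusted p = 0.00126). With library totals this difference did not pass (-0.39, adjusted p = 0.0541). At day 4, Fnip1 (0.46, SE 0.09, adjusted p = 0.00122) and Flcn (0.60, SE 0.15, adjusted p = 0.0079), partners in the folliculin complex that controls TFEB through mTORC1, were higher in KO, as was the sorting gene Vps35 (0.25, SE 0.08, adjusted p = 0.0467). From the hydrolase list, Gm2a (-0.51, SE 0.15, adjusted p = 0.0244) and Fuca1 (-0.40, SE 0.11, adjusted p = 0.016) were lower. The V-ATPase gene Atp6v0c (-0.39, SE 0.11, adjusted p = 0.0226) and Lamtor2 (-0.33, SE 0.10, adjusted p = 0.0333), of the Ragulator complex, were lower as well. The calls of these 7 genes at day 4 were not examined under the alternatives.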

How the data were processed

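Raw gene counts were deposited by the authors. They made TruSeq libraries, trimmed and filtered the reads with FastX and ShortRead, aligned them to GRCm38 and ran featureCounts 1.5.3 (aligner and strand setting not given in the sources used here, so reads of an antisense gene cannot be told apart). FPKM values of 13324 genes, which the authors quantile-normalized with EDASeq, served only as an alternative. Counts were analysed in R 4.3.3 with edgeR 4.0.16 (filterByExpr, TMM, robust quasi-likelihood F-test, 1 model of 6 groups), with Benjamini-Hochberg adjustment over 13203 genes and a threshold of 0.05. The same code was tested on simulated counts with known changes. The 5 comparisons of genotype use the same libraries as the 6 over time, so they share groups.

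Alternatives were DESeq2 size factors, library totals, totals without acinar enzyme genes, no filter, DESeq2 1.42.0, limma 3.58.1 on log2(FPKM + 1) and log2(FPKM + 0.1), 2 replicate blocks, only the groups compared, no WT replicate 1 and each library left out. Values of every library are given for the 3 highest and 3 lowest called members of each step in time, members called between genotypes (or the 3 smallest p) and Sqstm1, Map1lc3b, Vmp1, Ctsb, Ctsl and Lamp2; of the further lists, up to 2 called genes per direction. Members and lists were chosen with earlier results of these data known. Promoters are from RefSeq; gene starts and ends are those of the count table, and chromosomes were looked up by gene identifier in GENCODE vM21.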

Additional observations from a re-analysis of the deposited data

Results flagged for a closer look

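The change from day 1 to day 4 differed between KO and WT for Ctsl (-0.60 on the log2 scale, KO minus WT, in edgeR's interaction test), Sgsh, a heparan sulfate hydrolase (-0.99, SE 0.25, adjusted p = 0.0258), and Fam134b (0.72). The Sgsh call was not examined under the alternatives. Sgsh had 5.804, 6.202 and 6.57 CPM in KO and 4.26, 3.41 and 3.43 CPM in WT libraries at day 1, and 8.33, 9.29 and 9.71 CPM in KO and 10.6, 10.3 and 11.8 CPM in WT libraries at day 4. The change from day 0 to day 1 differed for Ncoa4 (-1.27) and Fam134b (-0.89). The Fam134b values lost their calls without WT replicate 1 at every day (-0.77, adjusted p = 0.117, and 0.64, adjusted p = 0.0908) and without WT day 1 replicate 2 (-0.83, adjusted p = 0.0847, and 0.66, adjusted p = 0.0511). The earlier one was also lost without KO day 0 replicate 2, KO day 1 replicate 2, WT day 0 replicate 2 or WT day 1 replicate 1 (adjusted p 0.0701 to 0.0916), with library totals (0.213), totals without acinar enzymes (0.0508), limma on FPKM (0.0704 and 0.0638 with pseudocounts 1 and 0.1) and only the groups compared (0.0628). The later one was also lost with library totals (0.13).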

How the results depend on the processing

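Counts of members that rose or fell over time kept within 1.5 times under DESeq2 size factors, no filter, DESeq2, limma on FPKM, the replicate blocks and the smaller fits. With library totals the members that rose and fell were 33 and 0 (KO, day 1 over day 0), 31 and 0 (WT, day 1 over day 0), 32 and 1 (KO, day 4 over day 1), 32 and 0 (WT, day 4 over day 1), 33 and 0 (KO, day 4 over day 0) and 33 and 0 (WT, day 4 over day 0). Of all 13203 genes, 9173, 8168, 12031, 12203, 12256 and 12345 rose in these comparisons, in the same order. Totals without acinar enzymes gave 7 that fell in WT at day 1 over day 0, 15 (KO) and 14 (WT) that rose at day 4 over day 1 and 23 that rose in KO at day 4 over day 0. Library totals turned the sign at day 1 over day 0 of Nbr1 (0.37), Wipi1 (0.51), Ulk1 (0.51) and Vmp1 (0.60) in KO and of Tfeb (0.18), Ctsa (0.27), Nbr1 (0.31) and Vmp1 (0.37) in WT, at day 4 over day 1 of Map1lc3b (0.67), Map1lc3a (0.68) and Ctsb (1.06) in KO and of Map1lc3b (0.71), Atg3 (0.85) and Ctsb (1.44) in WT, and of Map1lc3a in KO over WT at day 1 (0.055). Limma on FPKM turned Ctsb in WT at day 4 over day 1 (0.10 with either pseudocount). Of KO over WT, limma called 2 members at day 0 with a pseudocount of 0.1, library totals 13, DESeq2 1 and limma 1 and 1 at day 1, and library totals 3 and limma 3 and 2 (pseudocounts 1 and 0.1) at day 4. For the change from day 0 to day 1 limma called 1 and 1, and for that from day 1 to day 4 DESeq2 called 3, the fit of only the groups compared 2 and the fit without WT replicate 1 at every day 0. Leaving out 1 library at a time gave 0 to 1 (KO over WT, day 1), 3 to 6 (day 4) and 0 to 3 (change from day 1 to day 4). Labels tie no replicate number to an animal, although WT replicate 1 alone carried Ddx3y at each day (same-numbered libraries of 1 genotype correlated at -0.04 to 0.22, 6 of 18 pairs over 0.1; 13 of 18 were best matched by their own number, a hint from the data and not the design): with a replicate block, 0, 0 and 6 members passed between KO and WT at days 0, 1 and 4, and no count moved by over 1.5 times. A block within each genotype lost Gla (KO, day 4 over day 1, 14 that fell) and added Ctsz (WT, day 4 over day 0, 18 that rose). Of 1726 gene values under alternatives, 1641 kept direction and side of the threshold, 64 no longer passed, 4 newly passed and 17 reversed. Depth limits genes such as Optn, with 7 to 19 counts at day 0.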
